A study of Mus musculus with 6 samples.

Results

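Keratins and progenitor markers of the liver were followed in a comparison of 3 normal livers with 3 liver tumors of male C3H/HeN mice. The members were chosen by name, as every array probe that stands for Krt7, Krt8, Krt18, Krt19, Krt20, Krt23, Sox9, Spp1, Prom1 or Cd24a. All 10 genes were on the array, with 12 probes, out of 34741 named genes, and 9 of them passed the filter on dim signals that left 18546 genes to be tested. The mice of both groups were F2 animals of a control group, fed the standard diet CA-1 and tap water, and 74 to 75 weeks old. The tumors were macroscopic and were chosen by the study as carrying a Ha-ras mutation, and the sources used here do not say whether tumors and normal livers came from the same mice. Gene expression was measured in total RNA on 1-colour SurePrint G3 Mouse GE arrays, 1 array for each tissue sample. No source states that the samples of a group are separate animals, so p-values measure the spread between these samples. An expression value is here the background-subtracted signal of a probe divided by the 75th percentile of its array, and its log2 was compared with limma.

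Keratins are the intermediate filament proteins of epithelial cells, and each filament is built from pairs of a type I and a type II chain. Mature hepatocytes carry the simple pair of Krt8 (type II) and Krt18 (type I), whereas cells of the bile ducts carry Krt7 (type II) and Krt19 (type I) as well. Krt20 is a type I keratin best known from the epithelium of the gut, and Krt23 is a type I keratin with little expression in healthy adult liver. Sox9 is a transcription factor of bile duct and progenitor cells, Spp1 encodes the secreted phosphoprotein osteopontin, Prom1 a membrane protein of cell protrusions that is used as a marker of progenitor and cancer stem cells, and Cd24a a small cell surface glycoprotein that is linked to the membrane by a lipid anchor. Duct and progenitor cells are also recognised by Epcam, an adhesion molecule.

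In the GRCm38.p6 assembly the 6 keratins lie on a pair of chromosomes. Krt8 (chr15:101996711-102004342) and Krt18 (chr15:102028216-102032026) are neighbours with 23874 bp and no protein-coding gene between them, and Krt7 (chr15:101412403-101427806) lies 568905 bp away from Krt8 on the other side of a row of type II keratins. Krt20 (chr11:99428385-99438153) and Krt23 (chr11:99477973-99493120) are likewise adjacent, with 39820 bp between them, and Krt19 (chr11:100140810-100145926) is on the same chromosome. Sox9 (chr11:112782210-112787757), Prom1 (chr5:43993621-44102047), Spp1 (chr5:104435111-104441053) and Cd24a (chr10:43579169-43584265) are single loci outside the keratin clusters.

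The sequences just before the start of transcription are given for Krt20, Krt23 and Prom1 and for the Krt8 and Krt18 pair, because the results turn on these 5 genes. Each is the 250 bases before the RefSeq start on GRCm38.p6, read 5′ to 3′ in the direction of the gene, and for Prom1 the start farther upstream of the 2 listed. The Prom1 window lies within the span of the gene given above, which reaches farther upstream, to chr5:44102047. It is thus not the sequence before the outermost annotated end of Prom1. Capitals mark matches on either strand to the 3 motifs searched, TGANTCA (AP-1), GGAATG (TEAD) and TGGGAA (RBPJ).
Krt20, chr11:99438154-99438403, minus strand: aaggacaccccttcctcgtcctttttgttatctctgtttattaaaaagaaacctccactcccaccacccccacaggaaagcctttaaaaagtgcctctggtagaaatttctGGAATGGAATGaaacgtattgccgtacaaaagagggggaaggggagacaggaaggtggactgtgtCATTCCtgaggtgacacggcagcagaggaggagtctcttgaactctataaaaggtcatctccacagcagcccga
Krt23, chr11:99493121-99493370, minus strand: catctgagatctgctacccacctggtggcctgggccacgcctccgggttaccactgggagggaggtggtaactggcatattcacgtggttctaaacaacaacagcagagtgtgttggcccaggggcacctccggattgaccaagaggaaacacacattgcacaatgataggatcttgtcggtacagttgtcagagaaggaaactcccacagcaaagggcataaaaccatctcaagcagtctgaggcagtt
Prom1, chr5:44101737-44101986, minus strand: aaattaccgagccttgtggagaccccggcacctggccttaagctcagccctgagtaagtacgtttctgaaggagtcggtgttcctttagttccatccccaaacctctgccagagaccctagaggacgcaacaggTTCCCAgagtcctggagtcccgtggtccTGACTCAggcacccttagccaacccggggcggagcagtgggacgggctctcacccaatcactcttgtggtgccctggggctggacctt
Krt8, chr15:102004343-102004592, minus strand: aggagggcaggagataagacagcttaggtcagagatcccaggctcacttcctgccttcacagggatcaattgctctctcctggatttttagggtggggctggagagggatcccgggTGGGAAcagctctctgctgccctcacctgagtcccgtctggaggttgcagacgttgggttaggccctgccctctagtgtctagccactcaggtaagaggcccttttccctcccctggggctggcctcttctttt
Krt18, chr15:102027966-102028215, plus strand: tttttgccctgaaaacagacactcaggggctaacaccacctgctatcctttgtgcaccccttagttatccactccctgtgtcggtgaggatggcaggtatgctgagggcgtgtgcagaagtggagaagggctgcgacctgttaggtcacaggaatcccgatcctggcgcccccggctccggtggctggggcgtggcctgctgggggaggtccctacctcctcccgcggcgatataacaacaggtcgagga

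The Krt20 window held the TEAD letters 3 times, beginning 139, 134 and 74 bases before the start, the first 2 of them overlapping by 1 base. The letters occur at least once in 12.6% of the 32851 windows of this length and at least 3 times in 0.0913%. The Prom1 window held the AP-1 letters 88 bases and the RBPJ letters 116 bases before the start, and these occur in 6.75% and 21.6% of all windows. The window before the other Prom1 start held the AP-1 letters 189 bases from it. In Krt8 the RBPJ letters stood 134 bases before the start. None of the 3 motifs was matched in these windows of Krt23 and Krt18, nor in those of Krt7 and Spp1. These matches are descriptions of letters and no sites of binding were measured. RefSeq windows of Krt19, Sox9 and Cd24a were not used here.

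Because 2 members had a pair of probes each, the first 30 of the 60 bases of these probes and of the single probes of the other members that were called are shown, with the positions of the whole probes on mm9 as the array design gives them. The design does not say which exon or untranslated part a probe lies in.
Krt8, probe 1, chr15:101827138-101827197, minus strand: ccatccaaacccaattcagttgtattttct
Krt8, probe 2, chr15:101828827-101828886, minus strand: agatctccgagatgaaccgcaacatcaacc
Krt18, chr15:101862341-101862400, plus strand: ggatggcagagtggtgtccgagactaatga
Krt20, chr11:99289776-99289835, minus strand: ataagaacacagcacaaggtgattgacatg
Krt23, chr11:99339393-99339452, minus strand: tccgcgctaatgggtgagtctcgacggaaa
Prom1, probe 1, chr5:44384861-44384920, minus strand: tgatgtgtgtcatcagcctgtcctgatgtt
Prom1, probe 2, chr5:44397410-44397469, minus strand: acgaagaagtttgggaaaacaatactaggc
Cd24a, chr10:43303706-43303765, plus strand: cttggttctaccgtaagtttttccaatttc

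The arrays gave signal of similar quality within each group. The 75th percentile of the signal was 124 to 177 intensity units in the normal livers and 171 to 183 in the tumors, between 42.7% and 46.7% of spots were well above background, and no spot was saturated. Array profiles of the same group correlated at r = 0.980 to 0.992 and those of different groups at 0.914 to 0.950. The normal livers were on 1 slide and the tumors on another, with a median local background of 42 to 45 against 22 to 23 units, so slide and group cannot be told apart for any difference given here. Since bulk tissue was measured, more cells of a type and more RNA per cell cannot be told apart either.

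Of the 9 members tested, 5 were higher in the liver tumors at an adjusted p under 0.05 (limma with Benjamini-Hochberg adjustment over all tested probes), namely Krt18, Krt20, Krt23, Prom1 and Cd24a, and 0 were lower. The count lower was also 0 at an unadjusted p under 0.05 and with the methods' t-test, unpaired and adjusted, which called 4 higher. The study's methods name no adjustment of that test for expression. It was added here wherever the methods' t-test is given, and their 2-fold cut was not applied. Among all tested genes, 13.1% were called higher and 21.0% lower, or 34.1% in either direction. Krt20 and Cd24a passed the filter on dim signals through the tumors alone. Krt8, Krt19, Sox9 and Spp1 were tested and not called, and Krt7 was too dim to be tested. The study counted a gene as expressed only above a cut on its expression value. Mean values of Krt7, Krt19, Sox9, Spp1 and Cd24a were under that cut in both groups. The values of the normal livers and tumors did not overlap in 5 of the 9 tested members, a share near the 51.8% of all tested genes, and did not overlap in Krt7 either. The median log2 difference of the 10 members was 0.53, compared with -0.25 over all named genes and -0.13 over all tested genes. It lies in the gap between Krt8 (0.09) and Krt18 (0.96), so no member changed by that amount.

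**Figure D1:**
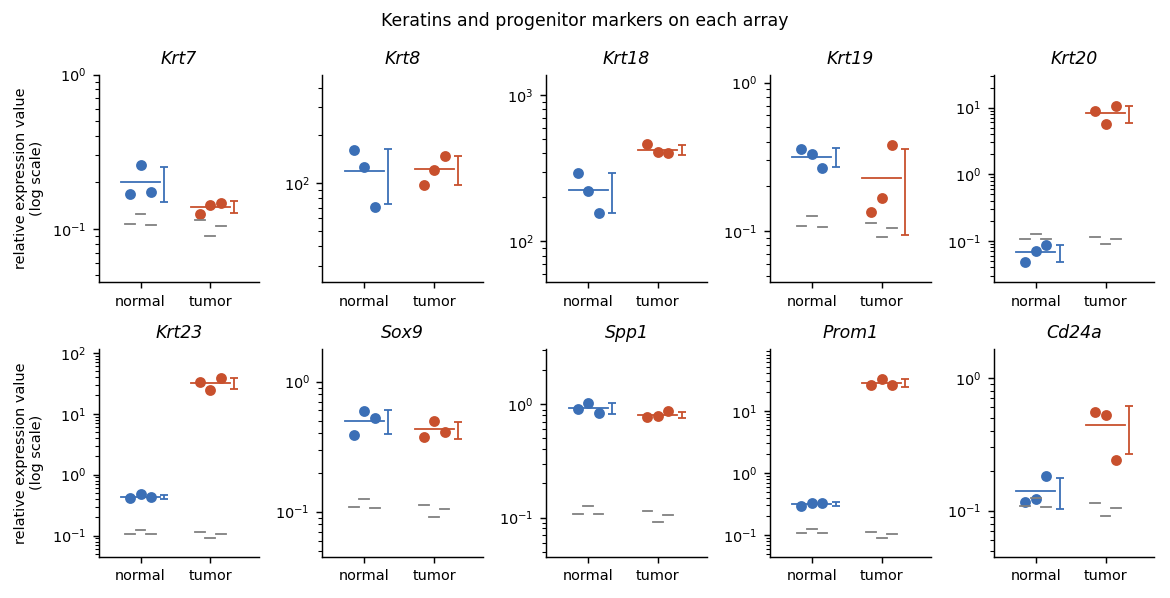
Relative expression value (signal divided by the 75th percentile of the array, log scale) of the 10 members on each array of normal liver (blue) and liver tumor (orange); the lines are the group means, the bars SD (n = 3), and the grey ticks the lowest signal well above background on that array. Krt20, Krt23 and Prom1 lie below 0.5 in every normal liver and above 5 in every tumor, whereas the points of Krt8, Krt19 and Sox9 overlap between groups.

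The hepatocyte pair Krt8 and Krt18 was bright on every array. Krt18 had expression values of 294, 222 and 157 in the normal livers and 460, 406 and 403 in the tumors. Every tumor was above every normal liver, and the normal livers were the more spread group. The means were 224 ± 68.4 and 423 ± 32.3 (SD, n = 3), and the fitted log2 fold change was 0.96 (SE 0.23, adjusted p = 0.0222, limma). The call was close to the threshold, with an adjusted p of 0.0630 without normal liver 2, 0.0580 without tumor 1 and 0.0537 without tumor 2.

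Krt8, the partner chain, showed no such separation. Its probe 1 read 161, 126 and 70.8 in the normal livers and 97.5, 120 and 148 in the tumors. The normal livers held both the highest and the lowest value, and the groups overlapped fully. The log2 fold change was 0.09 (SE 0.32, adjusted p = 0.848, limma), with a 95% interval of -0.68 to 0.86, and it turned to -0.24 without normal liver 3 and to -0.06 without tumor 3. Probe 2 of Krt8 read 45.0, 38.1 and 20.1 in the normal livers and 30.2, 39.6 and 51.0 in the tumors. Both probes thus put the arrays of each group in the same order, and probe 2 gave a log2 fold change of 0.27 (SE 0.34, adjusted p = 0.574, limma).

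Whether the 2 chains of the pair changed by different amounts was compared within arrays. The log2 value of Krt8 minus that of Krt18 was -0.87, -0.82 and -1.15 in the normal livers and -2.24, -1.75 and -1.45 in the tumors. All 3 tumors were lower than all 3 normal livers on this difference. The change of Krt8 was 0.87 lower than that of Krt18 (mean difference -0.95 in normal livers and -1.81 in tumors), with an exact two-sided permutation p of 0.1, the smallest that 3 against 3 arrays can give. With probe 2 of Krt8, a comparison chosen after seeing the data, the difference in change was -0.69 with the same p of 0.1. Since it is taken within an array, scaling does not enter it, and the offset between the 2 probes itself has no meaning.

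**Figure D2:**
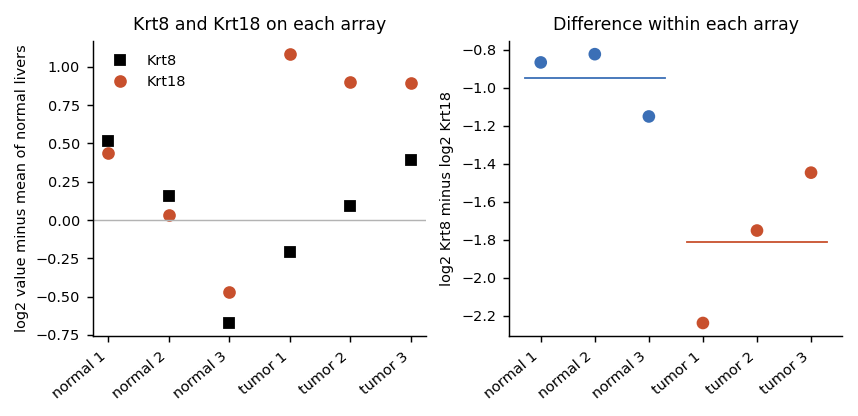
Left, log2 expression value of Krt8 (black squares) and Krt18 (orange circles) on each array minus the mean of the 3 normal livers; right, log2 Krt8 minus log2 Krt18 on each array, with the group means as lines. The 3 normal livers lie between -1.15 and -0.82 and the 3 tumors between -2.24 and -1.45.

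Across hepatocyte markers, read beside this pair, 1 of the 9 measured on the array was higher, 2 were lower and 6 were not called. These counts and those of the lists below stand beside 13.1% called higher and 21.0% lower among all tested genes, and those of hepatocyte markers are near these shares. Apoa1, an apolipoprotein of high-density lipoprotein, rose by a log2 fold change of 0.90 (adjusted p = 0.00565, limma), while the urea cycle enzymes Cps1 and Ass1 had log2 fold changes of -1.48 and -1.15, both called. Albumin (Alb) and the transcription factor Hnf4a had log2 fold changes of -0.06 and 0.16 and were not called. The summed expression value of the list was 9738 to 10777 in normal livers and 9264 to 9493 in tumors. The part of cell composition in the Krt18 result was not tested.

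Of the duct keratins, Krt19 was measured well above background on all 6 arrays and was not called, and Krt7 was too dim to test. Krt19 had expression values of 0.356, 0.328 and 0.265 in the normal livers and 0.134, 0.166 and 0.377 in the tumors. Tumors 1 and 2 were below all normal livers and tumor 3 was above them all. The log2 fold change was -0.63 (SE 0.38, adjusted p = 0.249, limma), with a 95% interval of -1.54 to 0.29, which does not reach a rise of the size fitted for Krt18. Without tumor 3 it was called lower, with a log2 fold change of -1.07 and an adjusted p of 0.0134. The values of tumors 1 and 2 were near the lowest signal well above background on those arrays, 0.113 and 0.0905. With the background corrected by normexp and an offset of 50 units on every signal, the log2 fold change of Krt19 over all 6 arrays was -0.25 (adjusted p = 0.265, limma). Such an offset by itself shrinks the fold changes of dim probes. Krt7 was well above background on 2 of 3 arrays in each group. It read 0.169, 0.260 and 0.173 in the normal livers and 0.126, 0.144 and 0.147 in the tumors, with all tumors lower, and when all probes were tested its log2 fold change was -0.50 (SE 0.21, adjusted p = 0.210, limma).

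Krt20 and Krt23, the adjacent type I genes, rose in all 3 tumors. Krt20 read 0.0475, 0.0693 and 0.0872 in the normal livers, all of them not well above background, and 8.76, 5.64 and 10.4 in the tumors. The rise was at least 70.9-fold, taking for each normal liver the lowest signal well above background on that array, with an adjusted p of 6.91e-05 from limma. Krt20 passed the filter on dim signals through the tumors alone, so that p rests on normal values that were not well above background. Krt23 could be measured in both groups, at 0.411, 0.476 and 0.424 in the normal livers and 32.8, 24.7 and 38.7 in the tumors. The groups were far apart for both genes, and tumor 2 was the lowest tumor for each. The log2 fold change of Krt23 was 6.18 (SE 0.18, adjusted p = 2.33e-05, limma). When the background was corrected by normexp instead, with an offset on every signal, the log2 fold changes were 4.04 for Krt20 and 5.33 for Krt23, both still called.

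Prom1 also rose in all 3 tumors. Its probe 1 read 0.291, 0.325 and 0.332 in the normal livers and 25.5, 32.9 and 25.8 in the tumors. The 3 normal livers were close together, the tumors were all higher, and here tumor 2 was the highest. The log2 fold change was 6.46 (SE 0.14, adjusted p = 6.87e-06, limma), or 5.35 with normexp. Probe 2, which lies elsewhere in the gene and carries the accession of another transcript, was dim in the normal livers, at 0.0488, 0.0300 and 0.0264 and not well above background, and read 1.16, 1.68 and 1.33 in the tumors. By probe 2 the rise was at least 12.1-fold. Both probes gave tumor 2 as the highest array.

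**Figure D3:**
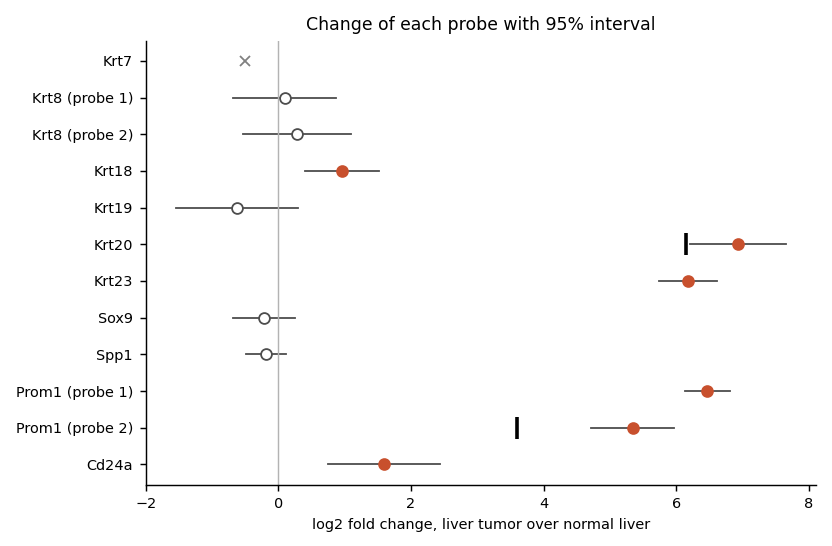
Log2 fold change of each of the 12 probes, liver tumor over normal liver (limma), with 95% interval; filled points passed an adjusted p of 0.05, open points did not, the cross is the difference of group means of the untested Krt7, and thick ticks are the lower bound where the normal livers were dim. Krt20, Krt23 and both Prom1 probes lie above 5 and the other probes below 2.

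The cholangiocyte markers, read beside Krt20, Krt23 and Prom1, were divided. Of 8 markers, 7 were tested, 3 rose and 0 fell in limma, and 0 fell at an unadjusted p under 0.05 or in the methods' t-test. Tspan8, a tetraspanin, read 0.112, 0.160 and 0.139 in normal livers and 42.0, 34.7 and 61.0 in tumors, with a fitted log2 fold change of 8.36. It was well above background on 2 of 3 normal livers and passed the filter through the tumors alone, so that fold change rests on normal values near the limit. The tight junction protein Cldn7 had a log2 fold change of 2.70 (SE 0.80, adjusted p = 0.0419, limma). Its tumors were widely spread, at 5.07, 1.03 and 10.8, above a highest normal value of 0.663. The RNA-binding protein Bicc1 had a log2 fold change of 2.06 (SE 0.14, adjusted p = 0.000358, limma). The summed value of the list was 3.80 to 4.45 in normal livers and 43.3 to 81.0 in tumors, in tumors mostly from Tspan8. Of the defining markers, Epcam was well above background on 1 of 3 arrays in each group, with values of 0.102 to 0.142 in normal livers and 0.0984 to 0.143 in tumors. The chloride channel Cftr had a log2 fold change of -0.69 (adjusted p = 0.165, limma). Secretin receptor (Sctr) and Pkhd1, a protein of the ciliary membrane, were at -0.04 and -0.08.

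Sox9 and Spp1 were measured well above background on all 6 arrays and were not called. Sox9 read 0.389, 0.596 and 0.523 in the normal livers and 0.378, 0.501 and 0.407 in the tumors, with overlapping groups. Its log2 fold change was -0.22 (SE 0.20, adjusted p = 0.431, limma), and the 95% interval of -0.69 to 0.25 leaves out a 2-fold change in either direction. Spp1 read 0.910, 1.03 and 0.836 in the normal livers and 0.769, 0.792 and 0.869 in the tumors. Tumor 3 lay within the range of the normal livers and the other tumors just below it. Its log2 fold change was -0.19 (SE 0.12, adjusted p = 0.284, limma), with an interval of -0.49 to 0.11.

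Cd24a was near the detection limit in normal liver, where it was well above background on 1 of 3 arrays. It read 0.116, 0.122 and 0.181 in the normal livers and 0.551, 0.525 and 0.242 in the tumors. Tumor 3 was well below the other tumors, though still above the highest normal liver. The log2 fold change was 1.59 (SE 0.35, adjusted p = 0.0171, limma). It was 0.53 (adjusted p = 0.0469, limma) with normexp, whose offset by itself shrinks the fold changes of dim probes. Cd24a passed the filter on dim signals through the tumors alone, so these p-values rest partly on normal values not well above background. The call was lost without normal liver 1 (adjusted p = 0.0571, limma), without normal liver 2 (0.0587) and without tumor 2 (0.0519). It was also lost with no filter on dim probes (adjusted p = 0.0533, limma). In the methods' t-test the adjusted p was 0.109 unpaired and 0.259 paired.

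Cd24a and Spp1 are also made by blood and immune cells, and markers of these cells are therefore given with them. Of 8 macrophage markers, 6 fell and 0 rose in limma, and 0 rose at an unadjusted p under 0.05 or in the methods' t-test, with a summed value of 101 to 173 in normal livers and 51.4 to 84.7 in tumors. Clec4f, a lectin of Kupffer cells, fell by 1.84 on the log2 scale, Timd4 and Vsig4, receptors of resident macrophages, had log2 fold changes of -1.65 and -1.27, and Cd5l, a secreted macrophage protein, one of -1.08, all called, whereas Adgre1 was at -1.12 with an adjusted p of 0.0717 (limma). Of 8 T and B lymphocyte markers, 4 were tested and 1 rose, the T cell co-receptor Cd4 with a log2 fold change of 1.59. The other tested genes were not called. The T cell gene Cd3e and the B cell gene Cd79b both had log2 fold changes of 0.03, and the B cell gene Cd79a had 0.80 (adjusted p = 0.0565, limma). The summed value of that list was 66.1 to 70.0 in normal livers and 141 to 245 in tumors, nearly all of it from Cd4. The B cell gene Ms4a1 was too dim to test and the T cell gene Cd8a was dim on all 6 arrays. Of 8 neutrophil markers, 4 were tested and 0 were called by limma, where 1 was lower at an unadjusted p under 0.05, or by the methods' t-test. The part of these cells in the values of Cd24a and Spp1 was not tested.

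Markers of stellate and endothelial cells were read in the same way. Of 8 stellate cell and fibroblast markers, 5 fell and 2 rose. Lrat, the enzyme that stores vitamin A as ester, and the matrix proteoglycans Dcn and Lum had log2 fold changes of -1.83, -1.64 and -1.41, and the collagen gene Col1a1 had 1.58. The summed value of the list was 83.7 to 102 in normal livers and 23.7 to 44.2 in tumors. Of 8 endothelial markers, 2 fell and 0 rose in limma, where 1 was higher at an unadjusted p under 0.05, and the methods' t-test called 0. The share that fell is near the 21.0% of all tested genes called lower. The scavenger receptor Stab2 and the lectin Clec4g had log2 fold changes of -0.78 and -0.49, and the summed value was 105 to 119 in normal livers and 80.9 to 90.3 in tumors. The part of these cells in the members' values was not tested.

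Most of the remaining keratin genes were dim in liver and in tumors. Of 48 other keratins on the array, 30 were dim on all 6 arrays, 14 were tested, 2 rose and 5 fell. Among all tested genes 13.1% rose and 21.0% fell, and the share of these keratins that rose is near the former. Krt5, a type II keratin of basal epithelial cells, rose by at least 5.51-fold in tumors, where it read 0.411, 1.82 and 0.323. Krt13, a type I keratin of the lining of the mouth and oesophagus, rose by a log2 fold change of 0.79. The type I keratins Krt10 and Krt9, both of the skin, fell, Krt10 with a log2 fold change of -0.65 and Krt9 by at least 1.75-fold. The type II genes Krt80 and Krt73 and the keratin-related Krt222 fell, with log2 fold changes of -1.28, -0.77 and -1.69. The median difference was -0.27 over the 23 type I and -0.25 over the 24 type II genes, beside -0.25 over all named genes.

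**Figure D4:**
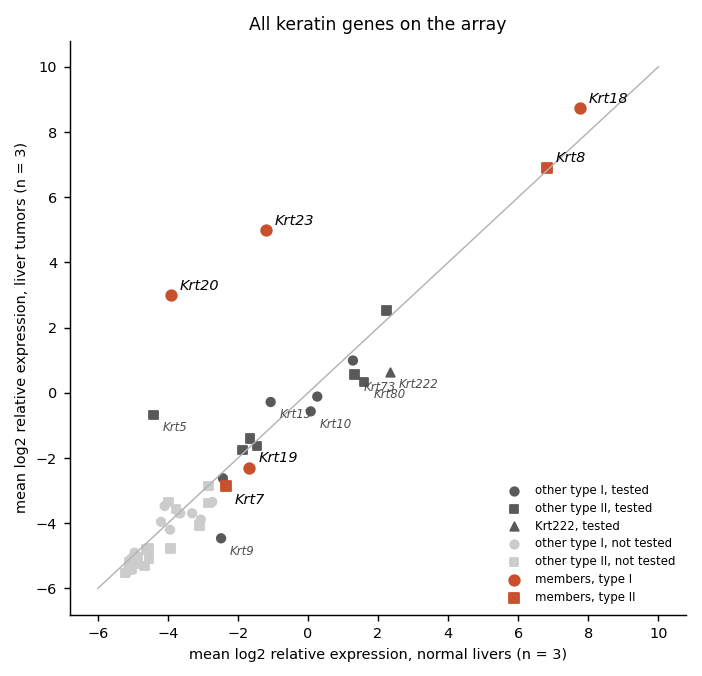
Mean log2 expression value of every keratin gene on the array in the normal livers (x axis) and the liver tumors (y axis), n = 3 each; orange marks are the 6 members, dark grey the other tested keratins and light grey those too dim to test, and names in small type are the other keratins called. Krt20 and Krt23 stand far above the line of equality, Krt18 lies just above it and Krt8 on it.

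Genes whose products attach keratin filaments to desmosomes and other junctions were measured alongside. Of 10 linker genes, 9 were tested, 3 rose and 1 fell. Pkp1, a plakophilin of stratified epithelia, was dim in normal livers, passed the filter through the tumors alone and rose by at least 5.91-fold. Periplakin (Ppl) rose by a log2 fold change of 2.08 and Pkp2 by 0.66, and Pkp3 fell by 0.41 on the log2 scale. Of 9 intermediate filament genes outside the keratins, 7 were tested, 1 rose and 1 fell. The nuclear lamin gene Lmna had a log2 fold change of 0.94, and desmin (Des), the filament of muscle and stellate cells, fell by 0.85 on the log2 scale. Des, also counted among the stellate cell markers, was well above background on 2 of 3 tumors and passed the filter through the normal livers alone.

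Osteopontin acts through integrins and Cd44, whose genes were read beside that of Spp1. All 9 receptor genes were tested, 0 rose and 2 fell in limma (1 and 3 at an unadjusted p under 0.05, 0 and 1 in the methods' t-test), Itga5 and Itga9 with log2 fold changes of -0.57 and -0.49. The share that fell in limma is near the 21.0% of all tested genes called lower. Cd44 had a log2 fold change of -0.67 (adjusted p = 0.0762, limma).

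Other genes of ducts and liver progenitors moved in both directions. Of 22 such genes, 15 were tested, 5 rose and 2 fell, and their median difference was -0.03. Alpha-fetoprotein (Afp), the fetal counterpart of albumin, read 0.132, 0.149 and 0.706 in the normal livers and 190, 181 and 134 in the tumors, with a log2 fold change of 9.44 (SE 0.63, adjusted p = 0.000306, limma). It was well above background on 2 of 3 normal livers and passed the filter through the tumors alone. Tnfrsf12a, the receptor of the cytokine TWEAK, rose by a log2 fold change of 3.98. Onecut2, a transcription factor of liver and bile duct development, read 35.9, 35.8 and 37.9 in the normal livers and 0.862, 4.71 and 5.93 in the tumors, and fell by 3.66 on the log2 scale.

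Among the Sox family, 18 genes other than Sox9 were on the array, 8 were tested, 3 rose and 1 fell. Sox4, which is widely expressed in developing tissues, had a log2 fold change of 1.81, and Sox17 and Sox18, factors of endothelial cells, had 1.05 and 0.69. Sox5 fell by 0.66 on the log2 scale.

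**Figure D5:**
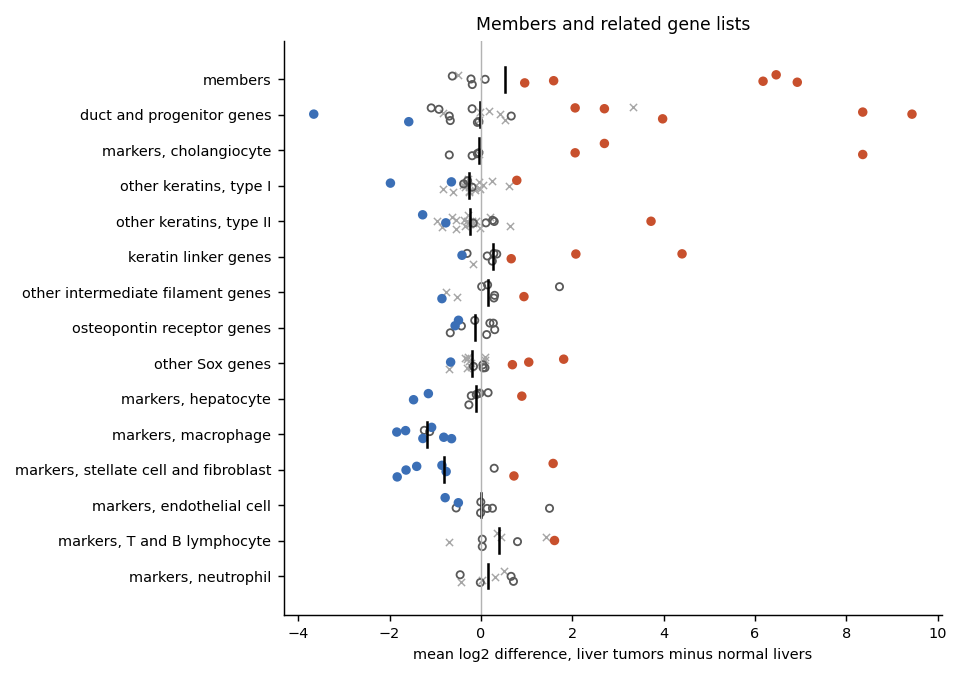
Mean log2 difference between liver tumors and normal livers of each gene of the 10 members and of 14 related lists; filled points were called (orange higher, blue lower), open points were tested and not called, crosses were not tested, and vertical bars are the medians of the lists. The members hold 3 points above 6, the macrophage markers lie wholly below 0, and the lists of receptors and filaments centre near 0.

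The genes most like the brightest members were found by Pearson's correlation of log2 values over the 6 arrays among 16482 genes well above background on all of them. For Krt23 these were Anxa2, a membrane-binding annexin (r = 0.9997), and Ptgr1, a prostaglandin reductase (r = 0.9993). For Krt18 they were Mvk, mevalonate kinase (r = 0.995), and Etl4 (r = 0.993), and for Krt8 the zinc finger gene Zfp30 (r = 0.990) and the actin-binding Lima1 (r = 0.971). Among members measured on all arrays, Krt23 and Prom1 correlated at 0.995, Krt18 and Krt23 at 0.870 and Krt8 and Krt18 at 0.475. With 3 arrays in each group, a correlation of genes that differ between groups mostly restates that difference, and it is given as a description.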

How the data were processed

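Total RNA of 3 normal livers and 3 liver tumors was labelled with Cy3 and hybridised to 6 SurePrint G3 Mouse GE arrays. The authors deposited for each array the spot intensity table of Feature Extraction (10.7.3.1 in the headers of the files, 12.0.3.1 in the submitters' processing notes), in which the processed signal is background subtracted, and a table of the ratio of that signal to the 75th percentile of the array over all spots, with column medians of 0.08 to 0.11. No column was left out.

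The processed intensity was divided by the array's 75th percentile and put on the log2 scale. Control and outlier spots were removed and spots of a probe averaged. A probe had to be well above background on every array of either group, which 24902 of 55681 were. Two-sided tests were run in limma 3.58.1 (lmFit, eBayes) under R 4.3.3, and adjusted p-values (Benjamini-Hochberg) under 0.05 were called. For a gene with several probes the one of highest mean log2 signal was taken. Means ± SD are on the linear scale. Precision is limited by there being 3 arrays per group. Where no array of a group was well above background, the fold is a bound, from group means of normalized log2 values, in which each dim array takes the higher of its own value and the lowest signal well above background on that array. The fit was tested on simulated data. Tables, exact permutation tests and figures were made in Python 3.11.15 (matplotlib 3.10.9, scipy 1.17.1, numpy 2.4.6, pandas 2.3.3).

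Probes were named through RefSeq annotation (GRCm38.p6) by accession (27235), symbol (3581) or synonym (565), and 24300 kept the name of the array design. Promoter windows come from RefSeq, and probe positions from the array design.

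The members, the lists and the tests were chosen with earlier results of these data known. Named in the text are all members, up to 4 called genes of largest absolute change in each list, fixed defining markers (1 of them is not reported here), and the 2 genes most alike to each of 3 bright members. Sctr, Pkhd1, Ms4a1, Cd8a, Cd3e, Cd79a, Cd79b and Cd44 were named after their values were seen. The alternatives tried were normexp background correction (offset 50), quantile normalization, scaling by spike-in probes, no filter, a stricter filter, the deposited ratios, the replicate number as a block, the methods' t-test unpaired and paired, the mean of a gene's probes, and leaving out each array.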

Additional observations from a re-analysis of the deposited data

How the results depend on the processing

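The count of 5 members called higher was 3 with no filter on dim probes. It was also 3 with probes well above background on all 6 arrays, where Krt20 and Cd24a are not tested. With the methods' t-test paired by replicate number it was 0, after an adjustment that the study's methods do not name for expression. When 1 array was left out it was 3 to 5. The count of 0 members called lower was 0 to 1 when 1 array was left out. Of all tested probes, 8239 were called, 5063 with spike-in scaling, 4674 with no filter, 5261 with the methods' t-test unpaired, 0 paired, and 4954 to 7171 with 1 array left out, the lowest without normal liver 2. Spike-in scaling moved the median log2 fold change of all tested probes from -0.13 to 0.03 and the calls from 3112 higher and 5127 lower to 3021 and 2042, while the 5 members called higher and the 0 called lower stayed at those counts. The log2 fold change of Krt8, not called in any setting, ran from -0.24 to 0.35 with 1 array left out, at -0.24 without normal liver 3 and -0.06 without tumor 3. Krt20, Krt23 and Prom1 lost their call only in the paired t-test (Krt20 is not tested under the strict filter), Krt18 in 5 settings and Cd24a in 6. The difference in change between Krt8 and Krt18 kept its sign in every setting tried and was -1.05 to -0.65 with 1 array left out.

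Normal livers and tumors share replicate numbers in the labels. With the replicate number as a block, 2805 probes were higher and 4216 lower, and the members called higher and lower were again 5 and 0. Same-numbered arrays deviated from their group means with correlations of 0.07, 0.13 and 0.05, and arrays of different number with -0.139 to 0.055. Tumors 1 and 2 were each closest to the normal liver of their own number. Tumor 3 was not, at 0.055 with normal liver 2 and 0.051 with normal liver 3. Normal liver 3 was about as close to tumor 1 (0.05) as to tumor 3. The arrays were not treated as paired, since not every pair exceeded 0.1, a cut that cannot show the samples to be unpaired. The study's statistics name a paired t-test, and whether same-numbered samples came from 1 mouse stays unknown. Slide could not be fitted as a block because each slide held 1 group. Genes near the background, such as Krt7, Krt19 and Cd24a, are those whose values the signal limits.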
